A study of Mus musculus with 30 samples.

Results

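Limb and trunk mesenchyme keeps a memory of its place in the body in the transcription factors it expresses, and 9 such genes were followed here: Tbx4, Tbx5, Tbx15, Tbx18, Pitx1, Meis1, Meis2, Shox2 and En1. They were taken by gene symbol from the 48440 genes of the count table, and all 9 were found. RNA was sequenced from 30 tumors grown under the skin of C57BL/6 mice from 5 fibrosarcoma cell lines, each derived from a single primary tumor that the carcinogen 3-methylcholanthrene (MCA) had induced in the flank. MCA-943 gave 4 tumors, MCA-948 gave 8, MCA-969 gave 8, MCA-970 gave 6 and MCA-972 gave 4. The study classed MCA-943 and MCA-969 as non-sensitive to NK1.1+ cells and the other 3 lines as sensitive. Every tumor had been depleted of hematopoietic cells with CD45 beads. The labels name the mouse strain Ncr1Cre for MCA-943 and Ncr1Cre R26DTA for the other 4 lines. They do not say whether this was the mouse of origin or the host. The study induced primary tumors in mice of both genotypes and names only C57BL/6 mice as recipients of the MCA lines. Since MCA-943 is the only line of its strain, strain cannot be told apart from MCA-943. Ncr1Cre expresses Cre recombinase in NKp46+ cells, and R26DTA adds a toxin that kills the cells in which Cre acts. A line is the descent of 1 primary tumor, so its tumors are repeats of that line and not of a kind of tumor. The labels do not say that the tumors came from separate cultures, and the p-values measure the spread between these tumors.

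In the embryo, Tbx5 starts the forelimb bud, and Tbx4 together with its activator Pitx1 sets up the hindlimb. Meis1 and Meis2 are homeobox proteins of the TALE class that mark the proximal limb and bind DNA with Pbx partners, and Shox2 is a homeobox factor needed for the upper limb skeleton. Tbx15 and Tbx18 act in the mesenchyme of the trunk, limb and dermis, and En1 marks the ventral ectoderm of the limb and a lineage of trunk dermal fibroblasts. Fibroblasts of the adult skin are known to retain part of such a code.

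Tumors carried from 27745104 to 46537062 counts, which are given below as CPM, counts per 1000000 counts after TMM normalization, each mean with its SD among tumors. The 10 fibroblast and mesenchyme markers, collagens and Pdgfra among them, summed to between 15048 and 78811 CPM in every tumor, whereas the 9 leukocyte markers reached at most 271 CPM and the 8 skeletal muscle markers at most 13.5 CPM. The 4 adipocyte markers stayed at or under 0.196 CPM in sum. In these bulk samples fewer expressing cells and less RNA per cell cannot be told apart. The labels contradict the class of MCA-969 in 2 of its tumors (W-1D, W-2D), whose sensitivity is given as opposite to that of the other 6. W-2D also stood apart in its markers, with 13.5 CPM of the muscle list against 4.17 to 6.06 CPM in the other 7 tumors of the line and 62.1 CPM of the pericyte list against 92.4 to 142 CPM. Most of that muscle sum was Acta1, at 12.5 CPM. Myod1, Myog, Ckm, Myh4 and Pax7 of the same list were at no more than 0.245 CPM in any tumor. Results that rest on MCA-969 are therefore also given without W-2D.

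Promoter windows were available for 6 of the 9 genes. Shox2 varied most among the genes read in every tumor, and En1 varied in another order over the lines. Tbx4 was read at no more than 24 counts in a tumor. The windows of these 3 genes are printed as examples. Each holds the 250 bases before the RefSeq start, 5' to 3' on the gene's strand in GRCm38.p6, and capitals mark a TATAAA box, a GGGCGG box or the Meis core TGACAG on either strand.
Shox2, chr3:66981772-66982021, minus strand: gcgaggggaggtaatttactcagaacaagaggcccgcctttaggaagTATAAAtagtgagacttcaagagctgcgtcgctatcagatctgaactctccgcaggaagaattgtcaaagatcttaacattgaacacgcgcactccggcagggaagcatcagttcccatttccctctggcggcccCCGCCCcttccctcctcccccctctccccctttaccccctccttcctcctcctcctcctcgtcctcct
En1, chr1:120602237-120602486, plus strand: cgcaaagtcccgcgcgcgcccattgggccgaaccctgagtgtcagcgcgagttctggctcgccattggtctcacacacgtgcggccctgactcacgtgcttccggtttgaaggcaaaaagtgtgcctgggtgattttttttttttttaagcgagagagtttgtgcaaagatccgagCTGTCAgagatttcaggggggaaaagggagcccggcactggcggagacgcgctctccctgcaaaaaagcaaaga
Tbx4, chr11:85896515-85896764, plus strand: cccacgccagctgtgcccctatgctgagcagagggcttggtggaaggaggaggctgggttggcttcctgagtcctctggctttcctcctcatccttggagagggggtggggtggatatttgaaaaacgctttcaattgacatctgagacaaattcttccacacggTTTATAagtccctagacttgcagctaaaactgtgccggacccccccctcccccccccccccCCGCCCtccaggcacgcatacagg
The Shox2 and Tbx4 windows both held a TATAAA box, found in 12.4% of all 32851 windows of this length, and a GGGCGG box, found in 32.7%. The En1 window held neither, but had 19 CpG against a median of 6 over all windows, and 1 Meis core, a match found in 15.9%. Neither the T-box half-site GGTGTGA, in 3.33% of all windows, nor the Pitx core TAATCC, in 6.25%, was found in any of the 3. The motifs do not overlap each other in letters, and a match is a description of the window only. The Tbx4 window lies inside the longer gene that GENCODE annotates.

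Per length, Tbx15 was the most abundant of the 9 genes, with a mean of 51.2 RPKM (CPM divided by gene length in kilobases) over the 30 tumors. Shox2 followed with 18.6, Tbx18 with 6.85, En1 with 5.39, Meis1 with 3.18 and Meis2 with 2.59 RPKM. Pitx1 averaged 0.502, Tbx4 0.0283 and Tbx5 0.00350 RPKM. The tumors thus carried the trunk and proximal factors at appreciable levels. They held little or no RNA of the factors that distinguish fore- from hindlimb, apart from Pitx1 in MCA-969, at 1.88 RPKM. Tbx4 was highest in MCA-970 and MCA-972, but only at 0.0946 and 0.0543 RPKM.

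**Figure D1:**
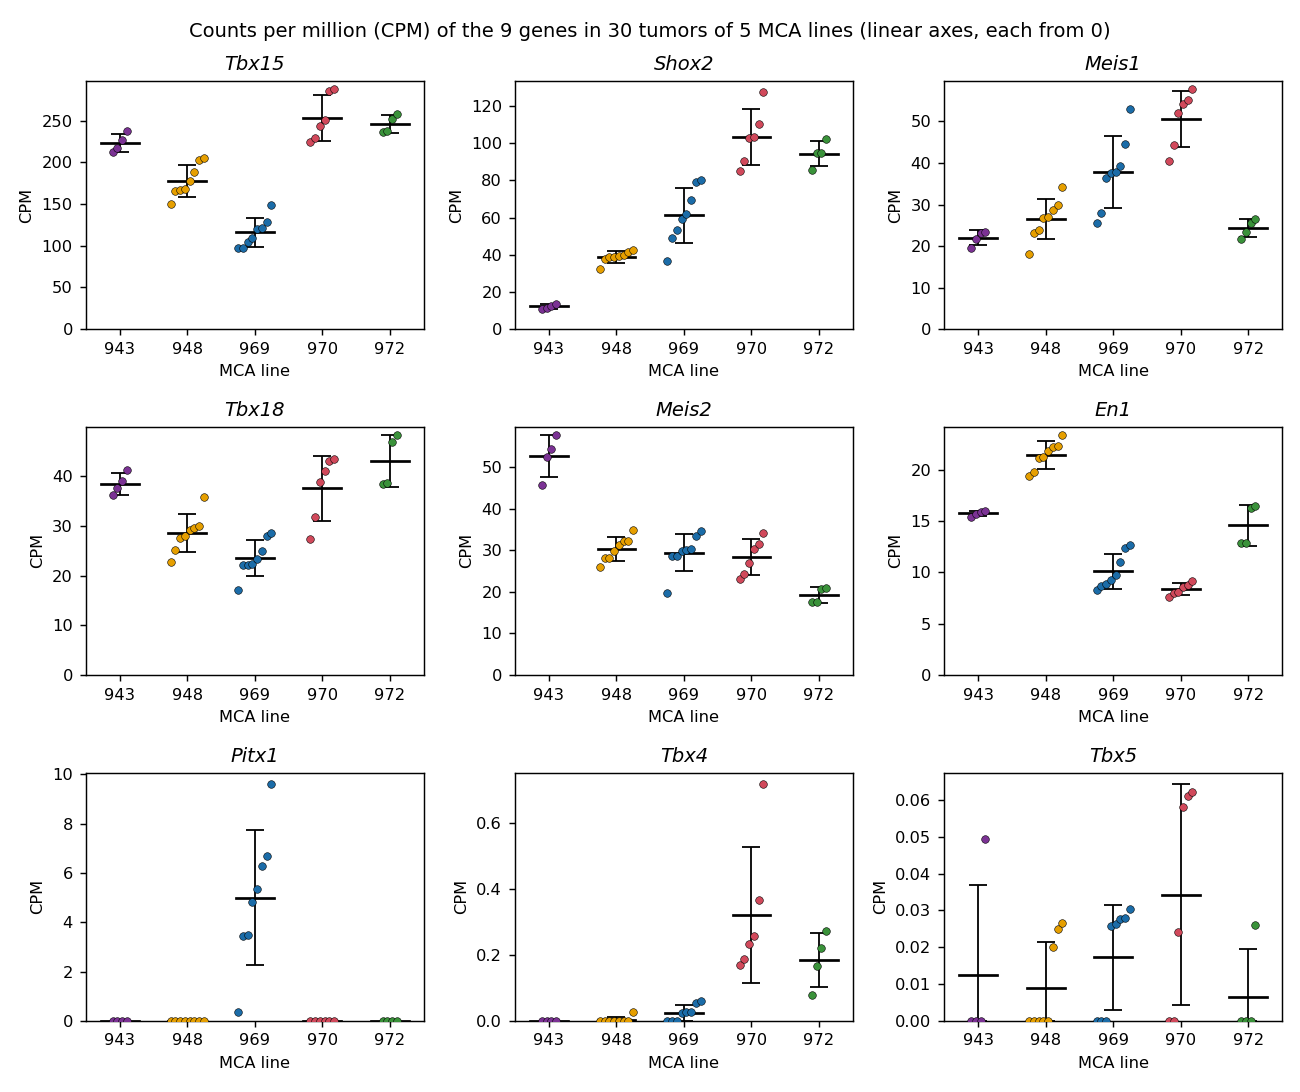
CPM of each gene (vertical axes, linear, each starting at 0) in the tumors of the 5 lines (horizontal axes). Points are tumors, thick lines are means and thin bars are 1 SD, which stop at 0. Pitx1 is above 0 in the 8 MCA-969 tumors and in no other, and Shox2 climbs from 12.2 CPM in MCA-943 to 103 CPM in MCA-970.

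Pitx1, the homeobox activator of the hindlimb program, lies at chr13:55825051-55836192 on the minus strand. It had 0 counts in all 22 tumors of MCA-943, MCA-948, MCA-970 and MCA-972. In the 8 MCA-969 tumors it ranged from 0.340 through a median of 5.08 to 9.59 CPM, or 11 to 372 counts, with a mean of 4.996 ± 2.73 CPM (SD, n = 8). The groups did not overlap. Between MCA-969 and another line, the same held for 21.8% (MCA-948) to 42.2% (MCA-943) of the 16862 genes tested. Against the limit that 3 counts set in each line, MCA-969 was at least 55.0-fold higher than MCA-970, 55.1-fold than MCA-943, 60.5-fold than MCA-948 and 63.1-fold than MCA-972. Pitx1 passed the filter on low counts through MCA-969 alone, the line in which it was read. In the edgeR fit with no such filter, its adjusted p in the comparisons of MCA-969 was 9.38e-05 with MCA-948, 0.000276 with MCA-970, 0.000894 with MCA-972 and 0.000802 with MCA-943. The lowest tumor was W-2D and the highest was W-1D, the pair with the opposite sensitivity label. Without W-2D the mean was 5.66 ± 2.14 CPM (SD, n = 7) and the bounds rose to between 62.4-fold and 71.4-fold. Without both, the remaining 6 tumors lay between 3.46 and 6.68 CPM. The lincRNA Gm28760, which overlaps Pitx1 on the same strand, had 0 counts in every tumor, and of the flanking genes H2afy was read at 98.4 to 206 CPM in the line means while Catsper3 reached at most 0.0291 CPM.

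Tbx4, the T-box partner of Pitx1 in the hindlimb, lies at chr11:85886422-85916097 on the plus strand. It had 0 counts in the 4 MCA-943 tumors, 1 count in 1 of the 8 MCA-948 tumors and 0 to 2 counts in the 8 MCA-969 tumors. MCA-972 tumors held 10, 9, 3 and 6 counts, and MCA-970 tumors held 6 to 24 counts. The mean was 0.185 ± 0.0831 CPM in MCA-972 (SD, n = 4) and 0.322 ± 0.206 CPM in MCA-970 (SD, n = 6), and these 2 lines overlapped. Both lay above every tumor of the other 3 lines, but narrowly so for MCA-972. Its lowest tumor had 3 counts, the limit taken for a 0, against up to 2 counts in MCA-969. Between 1 of these 2 lines and 1 of the other 3, from 29% to 59.6% of the 16862 genes tested did not overlap. Tbx4 was not among the genes tested. Tbx4 was thus not highest in the line that expressed Pitx1: the MCA-969 mean was 0.0240 ± 0.0241 CPM (SD, n = 8). Against the limit of 3 counts in MCA-943, MCA-970 was at least 3.55-fold and MCA-972 at least 2.04-fold higher. Tbx4 did not pass the filter on low counts. In the fit without it, Tbx4 was called in 6 of the 10 pairs of lines, those that set MCA-970 or MCA-972 against another line. The adjusted p was 1.13e-06 for MCA-970 and 5.44e-05 for MCA-972 against MCA-943, 6.39e-09 and 2.03e-06 against MCA-948, and 5.61e-07 and 0.000278 against MCA-969. In the same fit 17.1% and 16.2% of 32805 genes were called against MCA-943, 19.4% and 18.4% against MCA-948, and 14.4% and 13.7% against MCA-969. The shares behind the values of Pitx1 were 14.2% for MCA-969 against MCA-948 and 17.2% for MCA-943 against MCA-969. Between MCA-970 and MCA-972 the adjusted p was 0.228.

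Tbx5, which starts the forelimb bud, was read at 0, 1 or 2 counts in each of the 30 tumors, with 16 of them at 0. Its line means ran from 0.00652 CPM in MCA-972 to 0.0342 CPM in MCA-970, all below the 0.0792 to 0.0908 CPM that 3 counts stand for, so that no difference was detectable at this depth. The gene lies at chr5:119832668-119885219 on the plus strand. Its neighbor Tbx3, a T-box gene of limb margins and flank that lies 147.9 kb away, was read at 45.4 to 168 CPM in the line means.

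Tbx15 and Tbx18 stand for trunk and dermal mesenchyme. Tbx15, at chr3:99240381-99354259 on the plus strand, was read in MCA-943 at 213, 226, 238 and 217 CPM and in MCA-972 at 252, 237, 238 and 258 CPM. MCA-970 tumors ran from 224 through a median of 247 to 288 CPM, MCA-948 tumors from 150 through 173 to 205 CPM, and MCA-969 tumors from 96.8 through 115 to 148 CPM. MCA-969 thus lay below all tumors of the other lines, and MCA-948 below the remaining 3. Of all genes tested, 21.8% to 42.2% did not overlap between MCA-969 and another line. Between MCA-948 and the remaining 3 it was 43.8% to 49.9%. The log2 fold change of MCA-969 was -1.13 ± 0.09 (SE) against MCA-970 and -1.09 ± 0.09 against MCA-972, with adjusted p-values of 4.57e-12 and 1.21e-10. Without W-2D the MCA-969 mean was 117 ± 18.7 CPM (SD, n = 7), and both calls remained, at -1.12 and -1.07. Against MCA-943 the difference of 0.95 (MCA-943 over MCA-969) and against MCA-948 that of -0.62 stayed under the log2 change of 1 that a call needs. MCA-943, MCA-972 and MCA-970 followed each other without passing the test in the order of their means, with adjusted p-values of 0.300 and 0.753 for the neighbors. The summed fibroblast and mesenchyme markers were also lowest in these 2 lines, at 17867 to 38254 CPM in MCA-969 and 15048 to 21585 CPM in MCA-948, against 41702 to 78811 CPM in the other 3. Of the 10, 6 were called lower and 0 higher in MCA-969 against MCA-972, beside 20.6% of all genes called. Against MCA-970, 3 were lower and 1 higher (21.4%). Against MCA-948, where Tbx15 was also lower in MCA-969, 0 of these markers were lower and 3 higher (20.8%). MCA-943 against MCA-969 had 5 higher and 1 lower (27%). The part of these markers in the Tbx15 and Tbx18 levels was not tested. The antisense gene Gm43120 within Tbx15 was read at no more than 0.0138 CPM in any line mean.

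Tbx18, at chr9:87702800-87731260 on the minus strand, differed least. Its line means rose from a mean in MCA-969 of 23.6 ± 3.67 CPM (SD, n = 8), through 28.5 ± 3.84 CPM (n = 8) in MCA-948, to 37.6 ± 6.55 CPM (n = 6) in MCA-970, 38.5 ± 2.18 CPM (n = 4) in MCA-943 and 43.1 ± 5.28 CPM (n = 4) in MCA-972. Every neighbor in that order overlapped. Adjusted p-values were 0.0219 and 0.00195 for the first steps and 0.832 and 0.343 for the last. Its adjusted p was under 0.05 in 7 of the 10 pairs, but it was called in none, the widest log2 fold change being -0.87 ± 0.12 (SE), MCA-969 against MCA-972. Without W-2D the MCA-969 mean was 24.5 ± 2.79 CPM (SD, n = 7).

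Shox2, at chr3:66971727-66981771 on the minus strand, showed the widest range among the genes read in every tumor. MCA-943 tumors had 11.05, 11.6, 13.7 and 12.6 CPM. MCA-948 tumors had 32.4 to 42.7 CPM with a median of 39.1, and MCA-969 tumors 36.6 to 80.1 CPM with a median of 60.8. MCA-972 tumors had 85.6, 94.6, 94.8 and 102 CPM, and MCA-970 tumors 84.9 to 128 CPM with a median of 103. MCA-943 lay below all other tumors, and MCA-970 and MCA-972, which overlapped each other, lay above all others. Of all genes tested, 42.2% to 59.6% did not overlap between MCA-943 and another line. Between MCA-970 or MCA-972 and MCA-948 or MCA-969 it was 29% to 45.3%. The mean of MCA-970 was 8.44 times that of MCA-943, with a log2 fold change of MCA-943 against MCA-970 of -3.08 ± 0.17 (SE, adjusted p = 3.99e-15). MCA-943 was also lower than MCA-972 by -2.95 ± 0.17, than MCA-969 by -2.32 ± 0.16 and than MCA-948 by -1.67 ± 0.15. MCA-970 and MCA-972 exceeded MCA-948 by 1.41 ± 0.12 and 1.28 ± 0.13, and did not differ from each other beyond their spread (0.13 ± 0.14, adjusted p = 0.473). Within MCA-969 the lowest tumor was again W-2D, and the mean without it was 64.7 ± 12.1 CPM (SD, n = 7), with a log2 fold change of MCA-943 against MCA-969 of -2.40. Shox2 overlaps Rsrc1, a gene of the opposite strand that was likewise lowest in MCA-943, at 46.7 CPM, and highest in MCA-970, at 94.8 CPM. The strand setting of the counting is not stated, and reads of the overlap cannot be told apart.

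Meis1, at chr11:18879817-19018985 on the minus strand, was highest in MCA-970, whose tumors ran from 40.4 through a median of 53.2 to 57.7 CPM. MCA-969 tumors spread most widely, from 25.6 through 37.7 to 52.9 CPM, and overlapped MCA-970. Without W-2D their mean was 36.8 ± 8.88 CPM (SD, n = 7). MCA-948 tumors ran from 18.2 through 27.0 to 34.3 CPM. MCA-943 tumors had 19.6, 23.2, 23.4 and 21.8 CPM and MCA-972 tumors 25.6, 23.3, 21.7 and 26.5 CPM. MCA-943, MCA-972 and MCA-948 overlapped one another in this order of means, with adjusted p-values of 0.504 and 0.473 between neighbors. Meis1 was called between MCA-943 and MCA-970 (-1.20 ± 0.16 on the log2 scale, adjusted p = 2.76e-07) and between MCA-970 and MCA-972 (1.06 ± 0.16, adjusted p = 3.85e-06). Endothelial markers also had their highest line median in MCA-970, at 422 CPM. The 5 genes of that list summed to between 251 and 454 CPM in MCA-970 tumors and to between 15.7 and 313 CPM in the others. Of the 5, 4 were called in at least 1 pair of lines, beside 59% of all genes. Within MCA-970 the order differed: W-R had the lowest sum, 251 CPM, with 57.7 CPM of Meis1, and a-2G the highest, 454 CPM, with 40.4 CPM of Meis1. The part of the endothelial markers in the Meis1, Shox2 and Tbx4 levels of MCA-970 was not tested. In MCA-972, where Shox2 was also high and Tbx4 was also read in every tumor, the endothelial sum was 40.0 to 102 CPM.

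Meis2, at chr2:115863064-116065839 on the minus strand, took another order. MCA-943 tumors had 45.8, 52.5, 57.6 and 54.3 CPM and lay above all other tumors. Of all genes tested, 42.2% to 59.6% did not overlap between MCA-943 and another line. MCA-972 tumors had 17.6, 17.4, 20.7 and 20.9 CPM of Meis2. Between MCA-943 and MCA-972 in mean, MCA-948 ran from 25.9 to 34.9 CPM, MCA-969 from 19.7 to 34.6 CPM and MCA-970 from 23.1 to 34.2 CPM. Their means of 30.3, 29.4 and 28.4 CPM did not pass the test between neighbors (adjusted p-values of 0.692 and 0.690). Without W-2D, the lowest of MCA-969, that line ran from 28.5 to 34.6 CPM around a mean of 30.7 ± 2.31 CPM (SD, n = 7) and no longer overlapped MCA-972. The log2 fold change of MCA-943 against MCA-972 was 1.46 ± 0.13 (SE, adjusted p = 3.02e-10), the 1 pair in which Meis2 was called. Meis1 and Meis2 thus differed in which line was highest, MCA-970 for the one and MCA-943 for the other. The fibroblast and mesenchyme list was also highest in MCA-943, at 66944 to 78811 CPM against 15048 to 51477 CPM in the other lines. In MCA-972, where Meis2 was lowest, the list summed to 41702 to 51446 CPM. That was above its 15048 to 21585 CPM in MCA-948 and 17867 to 38254 CPM in MCA-969. The part of this list in the Meis2 level was not tested.

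En1, at chr1:120602418-120607992 on the plus strand, was highest in MCA-948. There it ran from 19.4 through a median of 21.5 to 23.4 CPM and overlapped no other line. Of all genes tested, 21.8% to 49.9% did not overlap between MCA-948 and another line. MCA-943 tumors lay close together at 15.9, 15.4, 16.03 and 15.7 CPM, and MCA-972 tumors at 12.9, 12.9, 16.4 and 16.3 CPM. MCA-969 tumors ran from 8.33 to 12.7 CPM and MCA-970 tumors from 7.62 to 9.12 CPM. En1 was called between MCA-969 and MCA-948 (-1.08 ± 0.08 on the log2 scale, adjusted p = 4.19e-12) and between MCA-970 and MCA-948 (-1.36 ± 0.09, adjusted p = 1.85e-13). Without W-2D the MCA-969 mean was 10.4 ± 1.66 CPM (SD, n = 7) and its call remained, at -1.05. Within the order of the means only MCA-972 and MCA-943 did not pass the test (adjusted p = 0.435). Keratinocyte markers, a check on skin ectoderm that may express En1, summed to 2.48 to 4.04 CPM in MCA-948, and to between 2.29 and 19.3 CPM in the other lines.

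Of the 9 genes, 7 passed the filter on low counts, and all 7 differed among the 5 lines at an adjusted p under 0.05, as did 94.1% of the 16862 genes tested. Passing the test means an adjusted p under 0.05. A gene was called between a pair of lines where its adjusted p was under 0.05 and its log2 fold change at least 1 in size. Of the 7, 6 were called in at least 1 of the 10 pairs, against 59% of all genes. Pitx1, which passed the filter through the 1 line where it was read, is among these 6. In MCA-943 against MCA-948, 1 of the 7 was called (Shox2; 29% of all genes). In MCA-943 against MCA-970, 2 were called (Shox2 and Meis1; 27.3%), and in MCA-943 against MCA-972, 2 (Shox2 and Meis2; 25.6%). MCA-969 against MCA-948 gave 2 (Pitx1 and En1; 20.8%), and MCA-969 against MCA-970 and against MCA-972 gave 2 each (Pitx1 and Tbx15; 21.4% and 20.6%). Between the non-sensitive lines MCA-943 and MCA-969, 2 were called (Pitx1 and Shox2; 27%). Among the sensitive lines, MCA-970 against MCA-948 gave 2 (Shox2 and En1; 29.4%), MCA-972 against MCA-948 gave 1 (Shox2; 26.8%) and MCA-970 against MCA-972 gave 1 (Meis1; 17.6%). Of so few genes, 1 or 2 calls lie below the share of all genes in some pairs and above it in others, and nothing is read from these counts. Without Pitx1, the median log2 fold change of the 6 others was between -0.58 (MCA-969 against MCA-972) and 0.67 (MCA-943 against MCA-969), beside medians of 0.03 and -0.04 over all genes. Pairs that share a line are not independent of each other.

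**Figure D2:**
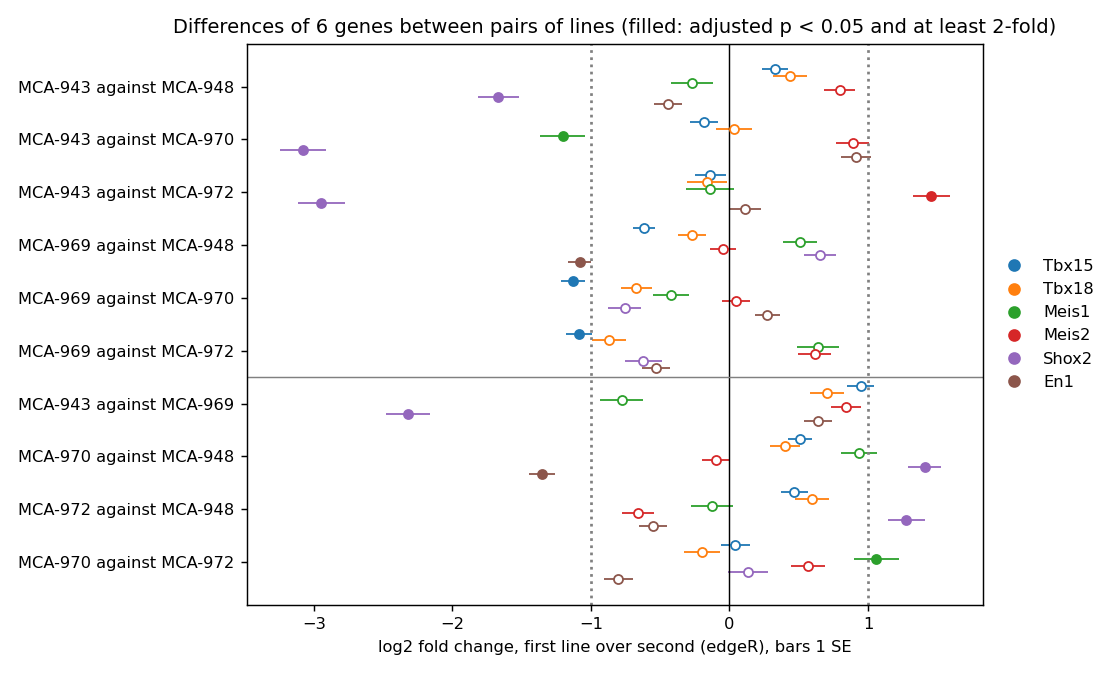
Log2 fold change (horizontal axis, first line over second, with bars of 1 SE) of 6 genes in the 10 pairs of lines (vertical axis). Filled points were called, dotted lines mark a log2 change of 1 in size, and the pairs above the grey line set a non-sensitive against a sensitive line. Shox2 lies furthest left, at -3.08 for MCA-943 against MCA-970, and Tbx18 has no filled point.

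Setting each non-sensitive line against each sensitive line makes 6 comparisons, and 148 genes or 0.878% were called one way in every one of them. None of the 7 genes was, with edgeR, DESeq2 or limma-voom, and none kept 1 sign of change across the 6 whatever its p. In no gene did both non-sensitive lines lie above or below all 3 sensitive lines in mean log2 CPM, as 16.7% of all genes did. Over the means of the 5 lines, the two-sided exact permutation p was 0.3 for Tbx15, Meis2 and Shox2, 0.4 for Pitx1, 0.6 for Tbx18, 0.8 for Meis1 and 0.9 for En1, where 0.1 is the smallest p that 5 lines allow. Since Pitx1 has 0 counts in 4 of the 5 lines, its p was fixed by that pattern and says nothing on sensitivity. With W-1D and W-2D, or W-2D alone, left out of MCA-969, Meis2 was separated, both non-sensitive lines being above the sensitive ones. The margin was small. Without W-2D, the edgeR log2 fold change of MCA-969 was 0.02 against MCA-948 (adjusted p = 0.834) and 0.12 against MCA-970 (adjusted p = 0.247). The titles also carry a letter, W or a, that the labels do not explain. In the 26 tumors of the 4 lines that hold tumors of both letters, no gene of the 7 was called in edgeR or limma-voom, as 0.272% of all genes were, and none had an unadjusted p under 0.05, the lowest being 0.173 for Meis2. The interaction of letter and line gave 0 of the 7 and 0.0181% of all genes.

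Library numbers run in 3 series, and the tumors of MCA-943, MCA-970 and MCA-972 each lie wholly in a different one. Where a series held both lines, the difference was also taken within it. In series 1, MCA-969 against MCA-972 gave -1.03 for Tbx15 (all tumors -1.09). In series 2, MCA-970 against MCA-948 gave 1.51 for Shox2 and -1.37 for En1 (all tumors 1.41 and -1.36), MCA-969 against MCA-948 gave -1.04 for En1 (all tumors -1.08) and MCA-969 against MCA-970 gave -1.29 for Tbx15 (all tumors -1.13). In series 3, MCA-943 against MCA-948 gave -1.73 for Shox2 (all tumors -1.67). All of these log2 fold changes were called within the series. Pitx1 of MCA-969 was called within series 1 and, against MCA-970, within series 2, and had an adjusted p of 0.0906 against MCA-948 in series 2, where each line has 2 tumors, those of MCA-969 being W-1D and W-2D. Its fitted log2 fold change there was 10.42 (all tumors 10.50), values that are no bound since MCA-948 has 0 counts. Tbx4 was read in series 2 at 6 to 24 counts in the MCA-970 tumors and at 0 or 1 count in the tumors of MCA-948 and MCA-969. With the series as a covariate, Meis1 lost both of its calls, at -0.82 for MCA-943 against MCA-970 and 0.86 for MCA-970 against MCA-972. Between MCA-943 and MCA-969 the call of Pitx1 was lost, although its fitted log2 fold change stayed at -10.50. All MCA-943 tumors lie in series 3, which shares only MCA-948 with the other series, and MCA-948 has 0 counts of Pitx1. That fit therefore could not test this difference, and nothing is read from the lost call. Tbx15, Tbx18 and Meis2 were called between MCA-943 and MCA-969 at 1.12, 1.05 and 1.21. Meis2 was called between MCA-972 and MCA-948 at -1.09.

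The share of variance that lay between lines was 95.2% for Shox2, 94.0% for Pitx1, 93.0% for En1 and 90.4% for Tbx15. Pitx1 had counts in MCA-969 only and passed the filter through that line, so its share follows from that pattern and nothing is read from it. It was 82.5% for Meis2, 76.8% for Meis1 and 73.8% for Tbx18, where the median of all genes tested was 75.0%. On the log2 scale the SD within lines, pooled over the lines, was 0.156 for En1 and 0.751 for Pitx1, with 0.267 as the median of all genes. For Pitx1, which had no counts outside MCA-969, the pooled value is the SD of no single line. The range of the line means was 3.06 for Shox2, in the 87.1 percentile of all genes, against 0.88 for Tbx18, in the 34.3 percentile.

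**Figure D3:**
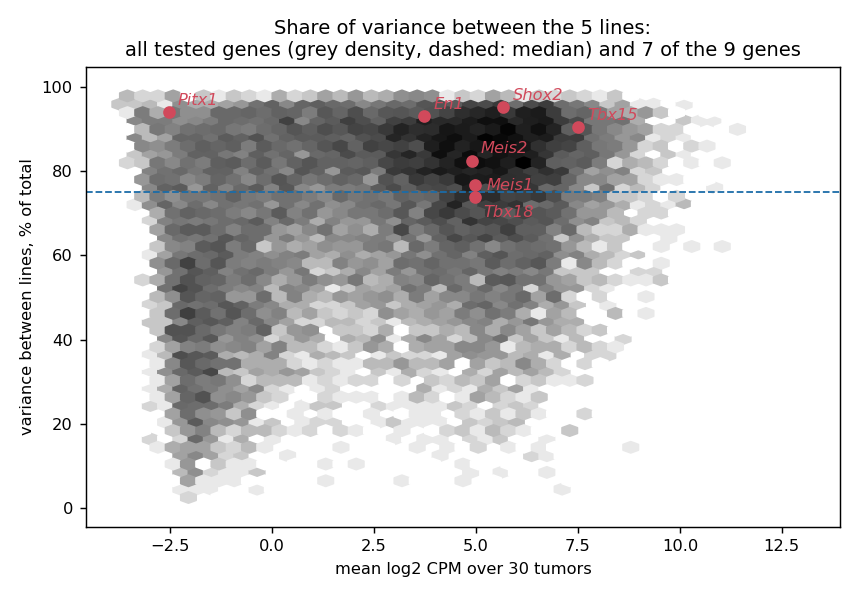
Share of the variance of log2 CPM that lies between the 5 lines (vertical axis, percent) against the mean log2 CPM over 30 tumors (horizontal axis), for all tested genes as grey density, darker where there are more genes on a log colour scale, and for 7 of the genes as red points. Shox2, Pitx1, En1 and Tbx15 lie above 90%, and Tbx18 lies just under the dashed median of 75.0%. Pitx1 had counts in MCA-969 only, which fixes its high share.

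Related genes from the same families and regions were counted beside them. Of 13 other T-box genes, 9 were tested and 8 were called in at least 1 pair of lines, against 59% of all genes. The largest called change was that of Tbx20, a cardiac and flank T-box gene, which averaged 40.9 ± 8.01 CPM (SD, n = 8) in MCA-948 and at most 0.633 CPM in another line. Tbx1, a gene of pharyngeal mesoderm, averaged 15.4 ± 2.36 CPM (n = 6) in MCA-970 and at most 2.29 CPM elsewhere. Tbx3 was the highest of that list per length, with 16.6 RPKM over all tumors. Of 9 other Pitx, paired-class and engrailed genes, 5 were tested and all 5 were called in some pair, beside the same share. Prrx1, a mesenchymal homeobox gene, was the highest of these at 52.5 RPKM, beside 51.2 RPKM for Tbx15.

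Of the 9 TALE-class partners of the Meis proteins, all were tested and 6 were called in some pair, beside the 59% of all genes. Pknox2 fell from 15.7 CPM in MCA-943 to 0.669 CPM in MCA-969, and Meis3 averaged 4.35 CPM in MCA-970 and 0.231 CPM in MCA-972, the pair of lines between which Meis1 was also called. Of 22 limb bud regulators, 15 were tested and 13 were called in some pair, beside the same 59%. Hand2, a factor of the posterior limb bud, averaged 6.00 ± 1.03 CPM (n = 6) in MCA-970 and at most 0.359 CPM elsewhere, and Isl1, which precedes Tbx4 and Pitx1 in the hindlimb field, averaged 6.28 ± 1.26 CPM (n = 8) in MCA-969, 4.35 CPM in MCA-970 and 0.0274 CPM in MCA-972. Of 16 limb-type Hox genes, 12 were tested and 11 were called in some pair, again beside 59%. Hoxa10 averaged 13.2 ± 1.90 CPM (n = 8) in MCA-969 and 28.7 ± 3.44 CPM (n = 6) in MCA-970, and at most 0.0392 CPM in the other 3 lines; Hoxa9 and Hoxa11 were likewise read in those 2 lines, at 16.3 and 16.4 CPM and at 1.49 and 1.49 CPM. Of these 2 lines, Tbx4 was read at 6 or more counts in each tumor of MCA-970 and at no more than 2 in those of MCA-969.

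**Figure D4:**
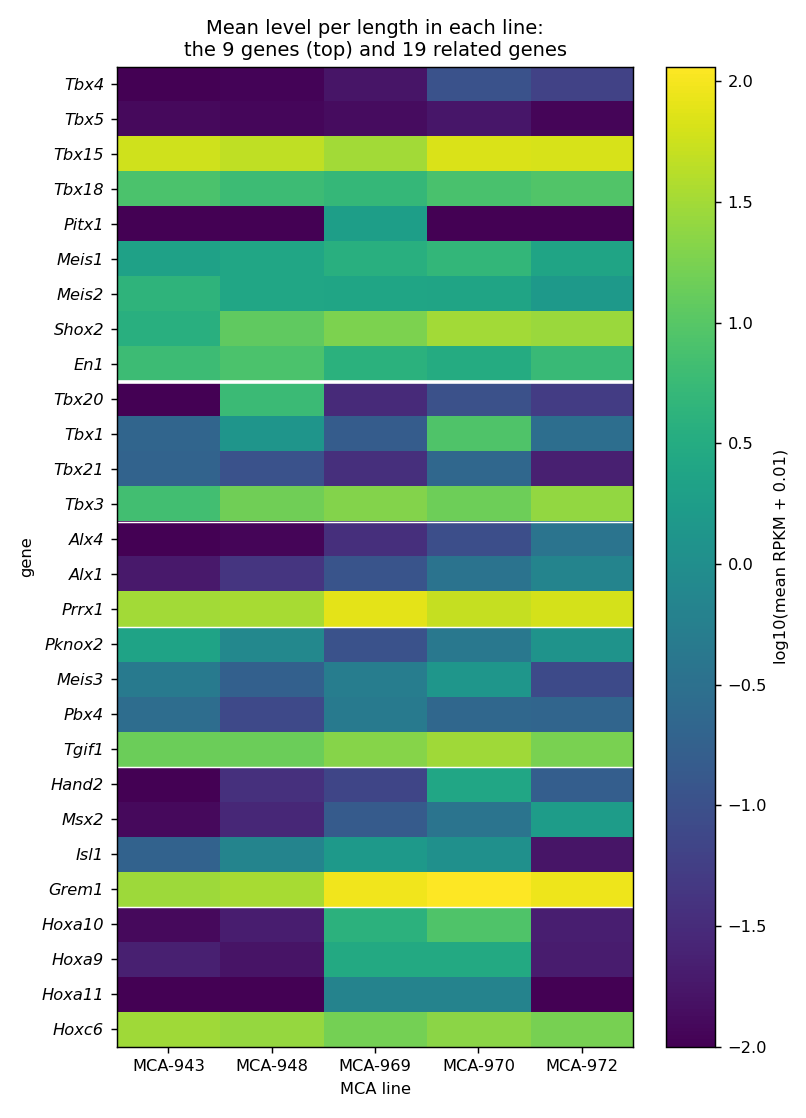
Mean level per length of each line (columns), as log10 of mean RPKM + 0.01 by colour, for the 9 genes (top block) and 19 genes of the related lists (blocks below: T-box; Pitx and paired-class; TALE; limb bud; Hox). Tbx15, Prrx1 and Grem1 are bright in all 5 lines, whereas Pitx1 is bright in MCA-969 only.

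The genes whose log2 CPM over the 30 tumors ran most like that of each of the 7 genes are given with Pearson's r, which compares tumors that share their line and is a description. For Tbx15 they were Fendrr (0.93), Fign (0.92) and Foxf1 (0.92), and Fendrr is the noncoding neighbor of Foxf1. For Pitx1 they were Wasf3 (0.99), Stac (0.97) and Glt1d1 (0.96), all read mainly in MCA-969. Shox2 was followed by Slc6a17, Epha7 and Bcl9 (each 0.95), En1 by Gm21887 (0.95), Guf1 (0.93) and Habp4 (0.93), Meis1 by Snhg11 (0.91), Gldn (0.90) and Sncb (0.88), Meis2 by Gm44275 (0.91), Fgd3 (0.90) and Ebf3 (0.90), and Tbx18 by Trappc9 (0.89), Plbd2 (0.89) and Osbpl1a (0.88).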

How the data were processed

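Total RNA of 30 tumors of 5 MCA lines was analysed. The deposited values are counts per gene without normalization for 48440 genes; the authors aligned reads with STAR 2.5.3a to GRCm38 and counted with featureCounts 1.5.2 per the submitters' processing notes, and the column names state removal of duplicates by molecular identifiers. The strand setting is not given in the sources used here. All 30 columns were used, with 27745104 to 46537062 counts each. Gene positions are from GENCODE mouse release 21, promoter windows from RefSeq. A count of 3 per tumor was taken as the limit of a 0; limits cover counting error only.

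Counts were fitted with edgeR 4.0.16 (R 4.3.3; TMM, filterByExpr by line, robust quasi-likelihood, line as factor, 16862 genes, biological coefficient of variation 0.221), adjusted by Benjamini-Hochberg over all genes. Calls needed an adjusted p under 0.05 and a log2 fold change of at least 1 in size. CPM used effective library sizes, and log2 CPM a prior count of 2. Line and letters came from the labels, sensitivity from the study's classes. Animal codes of the titles did not pair tumors: the correlation of deviations of same-coded tumors had a median of 0.02 over 29 pairs, from -0.43 to 0.41. Named were the 9 genes, of each list the 3 with the largest called change and the highest per length, flanking and overlapping genes, and the 3 most similar genes. The genes and lists were chosen with earlier results of these data known. A gene of the lists that this rule names is not reported here. Alternatives were DESeq2 1.42.0, limma-voom (limma 3.58.1), other normalization, filters, thresholds and covariates, subsets and leaving out each tumor. The script was tested on simulated data.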

Additional observations from a re-analysis of the deposited data

Results flagged for a closer look

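By Dixon's rule on the CPM of each gene in each line, 5 of 40 groups with any count had a tumor far from the others. Chance flags about 1 in 20 groups of continuous values, a rate that does not hold for groups of mostly 0 counts. Meis2 was lowest in the MCA-969 tumor W-2D, at 19.7 CPM against 28.5 to 34.6 CPM in the other 7. Tbx4 was highest in the MCA-970 tumor a-1D, at 0.718 CPM from 24 counts, beside 6 to 12 counts in the other 5. The other 3 rest on 1 or 2 counts: Tbx4 at 0.0261 CPM in the MCA-948 tumor a-2G, Tbx5 at 0.0493 CPM in the MCA-943 tumor a-1D and Tbx5 at 0.0261 CPM in the MCA-972 tumor 2G. In each of these 3 only 1 tumor had a count, so that the rule flagged it by construction, and no excess over chance is read from the 5.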

How the results depend on the processing

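No log2 fold change that was called or at least 0.5 in size changed sign under any alternative. Smaller ones of Meis2 did: MCA-969 against MCA-970 was 0.05 in all tumors and -0.22 in series 2, and MCA-969 against MCA-948 was -0.05 and, without W-2D, 0.02. Leaving out each tumor in turn left every count of called genes as it was; the count of genes with both non-sensitive lines on one side ranged from 0 to 1. It was 1 for Meis2 without W-2D, and for Pitx1 without MCA-969 W-R, MCA-969 a-R, MCA-970 a-2D or MCA-948 W-1G, although Pitx1 has 0 counts in 4 lines, whose order then has no meaning. Without the 2 oppositely labelled MCA-969 tumors that count was 1. With no filter on low counts, Tbx4 added 1 call in each of 6 pairs, giving 2 in MCA-972 against MCA-948 and 3 in the other 5. With no threshold on the fold, calls numbered 5 in MCA-943 against MCA-948 (64.6% of all genes), 4 against MCA-970 (60.8%), 6 in MCA-969 against MCA-948 (61.2%), 6 against MCA-970 (61.2%), 7 against MCA-972 (53.8%), 7 in MCA-943 against MCA-969 (61.8%), 5 in MCA-970 against MCA-948 (69.9%), 5 in MCA-972 against MCA-948 (62.4%) and 3 in MCA-970 against MCA-972 (48.1%). At a log2 fold change of at least 2 they numbered 0, 1 and 1 in MCA-943 against MCA-948, MCA-970 and MCA-972, 1, 1 and 1 in MCA-969 against the same lines, and 0 in each of the 3 pairs of sensitive lines, where from 6.17% to 12.7% of all genes were called. With the library series as a covariate they numbered 1 in MCA-943 against MCA-970, 4 in MCA-943 against MCA-969, 2 in MCA-972 against MCA-948 and 0 in MCA-970 against MCA-972; with the title letter as a covariate the last was also 0, Meis1 being at 0.99. Within series 2, MCA-969 against MCA-948 had 1 call. The share of all genes called was not taken in the fits with a covariate or within a series, and nothing is read from their counts. The cause of the changes in the number of calls was not tested, except that thresholds act by their construction. By Spearman's rho, 8 of the 21 most similar genes stayed the same. The animal code as a replicate block changed no call: Shox2 in MCA-943 against MCA-948 was -1.68 with it. Tbx5 and, in 3 lines, Tbx4 lay under the limit of 3 counts, and the lines, 5 in number, limit any statement on sensitivity.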
